A study of Mus musculus with 6 samples.

Results

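The genes described here code for the eukaryotic translation initiation factors (eIFs) of mouse and for their close regulators. They were taken as the protein-coding genes of the deposited table whose symbols begin with Eif followed by a digit from 1 to 6, leaving out Eif2ak2, and this gave 53 of the 21139 genes. RNA was sequenced from spleen CD4+ T cells of C57BL/6J mice after 2 days of activation by anti-CD3 and anti-CD28 antibodies. Of the 6 libraries, 3 came from cells given CpdA, which the series' design names as an agonist of the fatty acid receptor Gpr120, at a labelled dose of 20 with a unit written "µm" and read here as µM, and 3 came from cells in medium alone. Both groups had the same activation and culture medium, and the sources used here name no vehicle for the medium cells. The question was how expression differed with and without the compound. Whether each library is a separate culture or mouse is not said in the labels, so the p-values measure the spread between these libraries, which may be technical.

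Initiation is the step at which the small ribosomal subunit finds the start codon of an mRNA. The eIF2 complex brings the initiator tRNA, eIF3 forms the platform that holds the other factors on the small subunit, and the eIF4 factors bind the mRNA cap, unwind the mRNA leader and join it to the poly(A)-binding protein. Control acts mainly at 2 places: kinases that phosphorylate eIF2 keep its exchange factor eIF2B from recharging it, and eIF4E-binding proteins hold the cap-binding protein eIF4E until the kinase mTORC1 phosphorylates them. T cells make little protein at rest and raise translation strongly once activated, so these genes are read here in cells already in that state.

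With CpdA, initiation factor genes were mostly higher, by small amounts, and none of the 3 eIF4E-binding repressor genes was called higher. Of the 53 genes, 52 passed the filter on low counts. The exception was Eif2s3y, the Y-linked copy of the eIF2 gamma subunit gene, with 0, 1 and 1 counts in CpdA libraries and 0, 0 and 0 counts in medium libraries. By edgeR's quasi-likelihood test across all genes, at a Benjamini-Hochberg adjusted p under 0.05, 27 of the 52 rose (51.9%) and 5 fell (9.62%). Over all 13507 genes tested, 33.2% were called, 16.5% higher and 16.7% lower. Changes below are log2 fold changes from this test, and adjusted p-values are over all genes tested. The median log2 fold change of CpdA over medium was 0.09 for the initiation factor genes and 0.0004 for all genes.

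Most of these genes are abundant, and abundant genes are called more often at this depth. Among the 3189 genes averaging at least 69.1 CPM (counts scaled to a common library depth) over the 6 libraries, a level set at the lower quartile of the initiation factor genes in medium, 54.8% were called, 29.1% higher and 25.7% lower. Of the 39 initiation factor genes at or above that level, 61.5% were called, 59.0% higher and 2.56% lower. The share of genes called was thus near that of other abundant genes, and the split between higher and lower was not. Levels in the CpdA and medium libraries did not overlap for 34 of the 52 genes (65.4%), against 43.9% of all genes tested. At or above the same level the shares were 64.1% of the initiation factor genes and 63.7% of all genes, so the groups separated about as often as in other abundant genes. Of the 32 calls, 5 were at least 1.2-fold higher, 1 was at least 1.2-fold lower and 12 were under 1.1-fold either way. Among all called genes, 43.7% were at least 1.2-fold. In each of 14 alternative settings, 19 of the 27 higher calls and 3 of the 5 lower calls were kept. Without CpdA replicate 3, 3 genes were lower. The called genes Eif2s2, Eif2d, Eif2b4, Eif3c, Eif3j1, Eif3m, Eif4enif1, Eif5b and Eif6 each overlap a gene on the other strand, and since the strand setting of the counts is unknown, reads of the overlapping genes cannot be told apart.

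**Figure D1:**
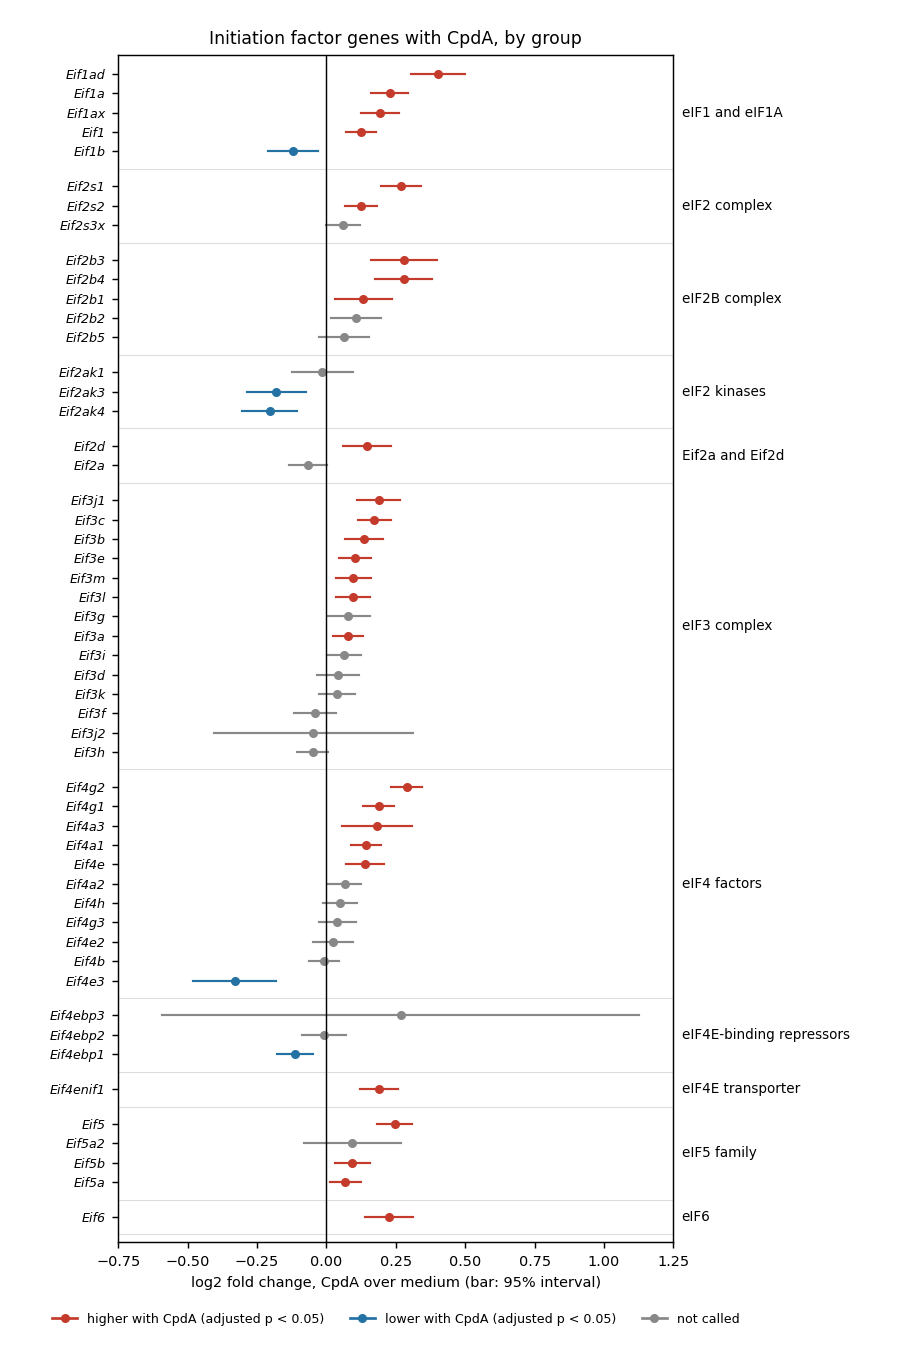
Log2 fold change of CpdA over medium for the 52 tested initiation factor genes (x axis), 1 row per gene, sorted within each group; points are estimates from edgeR and bars are 95% intervals. Of the 52 genes, 27 are higher at adjusted p under 0.05, 5 are lower and 20 are not called, and the 5 lower genes are Eif1b, Eif2ak3, Eif2ak4, Eif4e3 and Eif4ebp1.

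Library totals ran from 21407172 to 25952169 counts with CpdA and from 20247761 to 23640735 in medium, and the 53 genes together took 1.43% to 1.47% of the counts with CpdA and 1.32% to 1.37% in medium. In CPM their sum was 14664, 14278 and 14595 in CpdA libraries, against 13164, 13711 and 13401 in medium libraries, without overlap. Ribosomal protein genes took 10.9% to 11.2% with CpdA and 10.7% to 11.0% in medium, and mitochondrial genes 1.46% to 1.52% with CpdA and 1.36% to 1.46% in medium. The 10 markers of CD4 T cells were all detected and summed to 2628 to 2704 CPM with CpdA and 2776 to 2828 CPM in medium, lower with CpdA without overlap. These markers did not share a direction. Cd3d, Cd3e, Cd3g, Cd4, Trac and Zap70 (means of 227 CPM with CpdA and 298 CPM in medium) were called lower. Cd5 was called higher (638 CPM with CpdA and 573 CPM in medium), and Trbc1, Trbc2 and Lck were not called. Markers of CD8 T cells (7.33 to 9.40 CPM with CpdA, 7.99 to 8.84 CPM in medium), B cells (25.8 to 30.5 CPM with CpdA, 24.6 to 30.1 CPM in medium), neutrophils (4.55 to 5.63 CPM with CpdA, 5.42 to 6.57 CPM in medium) and erythroid cells (0.635 to 0.934 CPM with CpdA, 0.494 to 1.23 CPM in medium) were low and overlapped. Dendritic cell markers were at 6.86 to 8.22 CPM with CpdA and 6.12 to 6.56 CPM in medium, higher with CpdA without overlap. Summed markers of NK cells (0.0934 to 0.231 CPM with CpdA, 0.350 to 0.543 CPM in medium) and macrophages (0.420 to 0.635 CPM with CpdA, 0.719 to 1.01 CPM in medium) were lower with CpdA without overlap. Both sums rest on few reads. The macrophage difference came from Itgam, at a mean of 0.276 CPM with CpdA and 0.628 CPM in medium. Means of Lyz2 (0.0786 and 0.0635 CPM), Csf1r (0.105 and 0.0884 CPM) and Cd14 (0.0728 and 0.0423 CPM) were higher with CpdA. The part of these differences in the results on initiation factors was not tested, and in bulk RNA fewer cells of a type and less RNA per cell cannot be told apart.

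In the cap-binding complex eIF4F, made of eIF4E, the helicase eIF4A and the scaffold eIF4G, the main genes Eif4e, Eif4a1 and Eif4g1 were called higher. The paralogs Eif4a2 and Eif4g3 were not called. Sequences before a RefSeq start of the main genes are shown because they share a motif. The palindrome CACGTG, the E-box bound by MYC and related factors, was searched on both strands in the 250 bases before each RefSeq start (GRCm38.p6). It was present for 9 of the 42 initiation factor genes that matched the RefSeq table (21.4%), against 6.86% of all 27025 genes in it. That background includes genes not tested here, and no share was taken among genes of like level, for this or the other motifs. Capitals mark the motif, and each sequence runs 5′ to 3′ on the strand of the gene. The stretches of Eif4e and Eif1b are short because annotated exons overlap them. The RefSeq starts used for Eif4g1 and Eif4e lie inside the genes as the deposited table bounds them, and the stretches begin 4320 bases (Eif4g1) and 837 and 1001 bases (Eif4e) past the deposited gene start.
Eif4a1, chr11:69672567-69672652, minus strand, motif 189 to 184 bases before the start: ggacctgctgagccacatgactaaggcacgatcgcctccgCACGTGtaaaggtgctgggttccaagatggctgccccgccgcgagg
Eif4g1, chr16:20672633-20672718, plus strand, motif 54 to 49 bases before the start: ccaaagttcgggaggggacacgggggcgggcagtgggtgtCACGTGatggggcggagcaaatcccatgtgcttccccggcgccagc
Eif4e, chr3:138527028-138527057, plus strand, motif 228 to 223 bases before the start: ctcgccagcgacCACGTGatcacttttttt
Eif4e, chr3:138527192-138527221, plus strand, motif 64 to 59 bases before the start: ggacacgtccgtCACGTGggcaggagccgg
Eif1b, chr9:120492570-120492599, plus strand, motif 24 to 19 bases before the start: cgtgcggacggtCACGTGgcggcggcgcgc

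Eif4a1, Eif4g1 and Eif4e, the first 3 of these genes, rose with CpdA, whereas Eif1b, shown for contrast, fell. The motif was found for 4 of 22 matched genes that rose (Eif5a is the other), for 1 of 3 that fell and for 4 of 16 that were not called (Eif3f, Eif3k, Eif4h and Eif5a2). The remaining matched gene, Eif2s3y, was not tested. The ETS motif CCGGAAG was present for 12 of the 42 genes (28.6%), against 7.83% of all genes. It was found for 6 of the 22 that rose, 1 of the 3 that fell and 5 of the 16 not called. The cyclic AMP response element TGACGTCA was found for 0 of the 42 genes and for 1.77% of all genes. None of these 3 motifs contains another. These counts describe letters in a window and not sites of binding. Not matched in the table were Eif1a, Eif2b3, Eif3e, Eif3h, Eif3i, Eif3j2, Eif4e3, Eif4ebp1, Eif4ebp3, Eif4g2 and Eif6.

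Among the eIF4 factors, 5 of 11 tested genes rose and 1 fell, with a median log2 fold change of 0.07, and their summed level was 9.79% higher. The share called was 54.5%, against 33.2% of all genes tested and 54.8% of the abundant genes. Eif4g2, which codes for a scaffold related to eIF4G that lacks the site for eIF4E and serves cap-independent initiation, had the strongest call of all initiation factor genes. The gene (ENSMUSG00000005610) lies on the minus strand of chromosome 7, from 111070568 to 111083030 in GRCm38. Its level was 882, 872 and 897 CPM in CpdA libraries, against 688, 738 and 728 CPM in medium libraries. The lowest CpdA library lay well above the highest medium library, and the change was 0.29 ± 0.03 (SE, adjusted p = 5.7e-11).

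Eif4g1, the main scaffold that ties eIF4E to eIF4A and eIF3, was at 657, 641 and 675 CPM with CpdA and at 566, 589 and 565 CPM in medium. These values did not overlap, with a change of 0.19 (adjusted p = 7.41e-07). Eif4a1, the helicase that unwinds mRNA leaders, averaged 1148 ± 13 CPM with CpdA and 1033 ± 30.3 CPM in medium (SD, n = 3 each). Its libraries had 1160.2, 1151 and 1134 CPM with CpdA and 1002, 1062 and 1034 CPM in medium. Each CpdA value exceeded each medium value, for a change of 0.14 (adjusted p = 3.47e-05); reads of the Eif4a family may be shared with its pseudogenes, of which 1 in the table had 129 counts in all.

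Eif4e, the cap-binding subunit, had 149.6, 145 and 145 CPM with CpdA, against 129.6, 134 and 132 CPM in medium, a change of 0.14 (adjusted p = 0.0013) with no overlap. Its relative Eif4e3, a weaker cap binder, went the other way and fell. Eif4e3 had 21.2, 22.7 and 18.3 CPM in CpdA libraries and 27.8, 25.6 and 24.5 CPM in medium libraries, without overlap, and its change of -0.33 ± 0.07 (SE, adjusted p = 0.000454) was the lowest of the 52. The table holds another gene, Gm20696, on the same strand over Eif4e3, so some of its reads may have been divided between them. Eif4e2, a cap-binding protein linked to repression, was at 121, 118 and 120.1 CPM with CpdA and 118, 119 and 114 CPM in medium, which overlapped (log2 fold change 0.02, 95% interval -0.05 to 0.10).

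Of the further eIF4 genes, 1 was called. Eif4a3, whose product is a helicase of the exon junction complex rather than an initiation factor in the strict sense, rose by 0.18 (adjusted p = 0.0296). That call was lost without CpdA replicate 3 (adjusted p = 0.0743), without medium replicate 1 (0.0844) and without medium replicate 3 (0.0877). Eif4a2, the helicase paralog that is not tied to growth, was at 405, 411 and 395 CPM with CpdA and 385, 376 and 388 CPM in medium and did not pass (log2 fold change 0.07, adjusted p = 0.0783). For Eif4g3, the second eIF4G scaffold, the levels were 214, 203 and 207 CPM with CpdA and 193, 209 and 200.2 CPM in medium, which overlapped (log2 fold change 0.04, 95% interval -0.03 to 0.11). The helicase partners Eif4b (95% interval -0.06 to 0.04) and Eif4h (-0.01 to 0.11) were not called; Eif4h passed without medium replicate 2 (adjusted p = 0.044). Eif4enif1, which codes for the transporter that carries eIF4E to the nucleus and to processing bodies, had 205, 197 and 197 CPM with CpdA and 166, 181 and 175 CPM in medium. It rose without overlap, by 0.19 (adjusted p = 1.89e-05).

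None of the 3 eIF4E-binding repressors was called higher with their target, and 1 fell. The share called was 33.3%, against 33.2% of all genes tested. Eif4ebp1, the best studied of them and a substrate of mTORC1, had 166, 167 and 161 CPM in CpdA libraries, against 178, 174 and 179 CPM in medium libraries. All CpdA values lay below all medium values, and the gene fell, with a change of -0.11 ± 0.03 (SE; adjusted p = 0.00555). Without CpdA replicate 3, its lowest library, the log2 fold change was -0.09 and the call was lost (adjusted p = 0.0659), so the count of repressors that fell was 0 there in place of 1. Eif4ebp2 was at 94.3, 93.6 and 91.7 CPM with CpdA and 93.8, 90.1 and 95.5 CPM in medium, with overlap and a 95% interval of -0.09 to 0.07 for the log2 fold change. Eif4ebp3 was near the limit of detection, at 0.747, 0.655 and 0.357 CPM with CpdA and 0.296, 0.465 and 0.656 CPM in medium. Its interval of -0.59 to 1.13 leaves a change in either direction not detectable at this depth, and it overlaps Ankhd1 on the same strand.

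**Figure D2:**
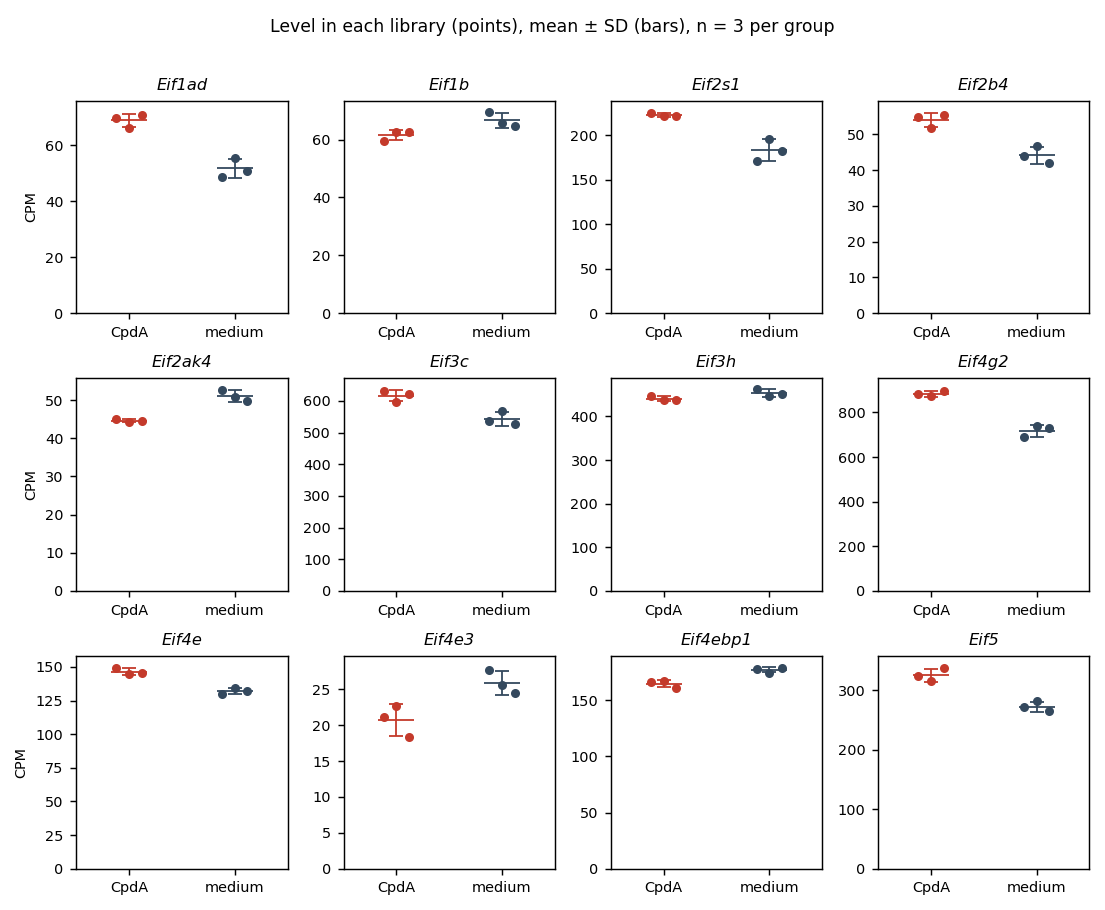
Level in CPM (y axis, from 0) of 12 initiation factor genes in each library, CpdA on the left and medium on the right; points are libraries and bars are the mean ± SD of 3. Eif1ad, Eif2s1, Eif2b4, Eif3c, Eif4g2, Eif4e and Eif5 lie higher with CpdA without overlap, Eif1b, Eif2ak4, Eif4e3 and Eif4ebp1 lie lower without overlap, and the groups overlap for Eif3h.

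Ratios of 2 genes within a library do not depend on the scaling between libraries and show whether paralogs and partners moved apart. The 12 ratios were taken on FPKM (counts scaled by gene length and library depth), and with 3 libraries against 3 an exact two-sided permutation test cannot give a p below 0.1. For Eif4ebp1 over Eif4e, the ratio was 3.27, 3.39 and 3.26 with CpdA and 4.03, 3.81 and 3.96 in medium. Per length, the repressor thus stood above its target in every library, and less so with CpdA. The size of the ratio, unlike its difference between groups, rests on 1 deposited length per gene (981 bases for Eif4ebp1 and 2882 for Eif4e). The difference was -0.25 on the log2 scale without overlap (exact permutation p = 0.1, the smallest possible). Eif4ebp2 over Eif4e was 1.02, 1.04 and 1.02 with CpdA and 1.17, 1.08 and 1.16 in medium, a difference of -0.15.

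Several paralogs also stood apart without overlap. Eif4e3 over Eif4e was at 0.162, 0.180 and 0.145 with CpdA and 0.245, 0.219 and 0.212 in medium, a log2 difference of -0.48, and Eif4e2 over Eif4e differed by -0.11. Among scaffolds, Eif4g3 over Eif4g1 was 0.226, 0.219 and 0.212 with CpdA and 0.237, 0.246 and 0.246 in medium, while Eif4g2 over Eif4g1 was 1.46, 1.48 and 1.45 with CpdA and 1.32, 1.37 and 1.40 in medium, with log2 differences of -0.15 and 0.10. Eif1b over Eif1 was 0.161, 0.172 and 0.171 with CpdA and 0.210, 0.197 and 0.192 in medium, a log2 difference of -0.25. Eif4ebp2 over Eif4ebp1 was 0.311, 0.308 and 0.313 with CpdA and 0.289, 0.284 and 0.294 in medium, a log2 difference of 0.10. Among the eIF2 kinases, Eif2ak1 over Eif2ak3 was 1.13, 1.00 and 1.03 with CpdA and 0.930, 0.943 and 0.938 in medium, a log2 difference of 0.17. In all, 9 of the 12 ratios did not overlap between groups, each at exact permutation p = 0.1 and 0.133 after adjustment over the 12. No share was taken over other gene pairs. Of single genes, 43.9% of all tested and 63.7% of the abundant ones did not overlap between groups. The ratios of Eif4ebp1, Eif4ebp2, Eif4e2 and Eif4e3 share the denominator Eif4e, which itself rose, so they are not separate results. Eif4ebp2 and Eif4e2 were not called on their own. The groups overlapped for Eif4a2 over Eif4a1 (exact permutation p = 0.2), Eif5a2 over Eif5a (0.8) and Eif2ak4 over Eif2ak3 (0.7).

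**Figure D3:**
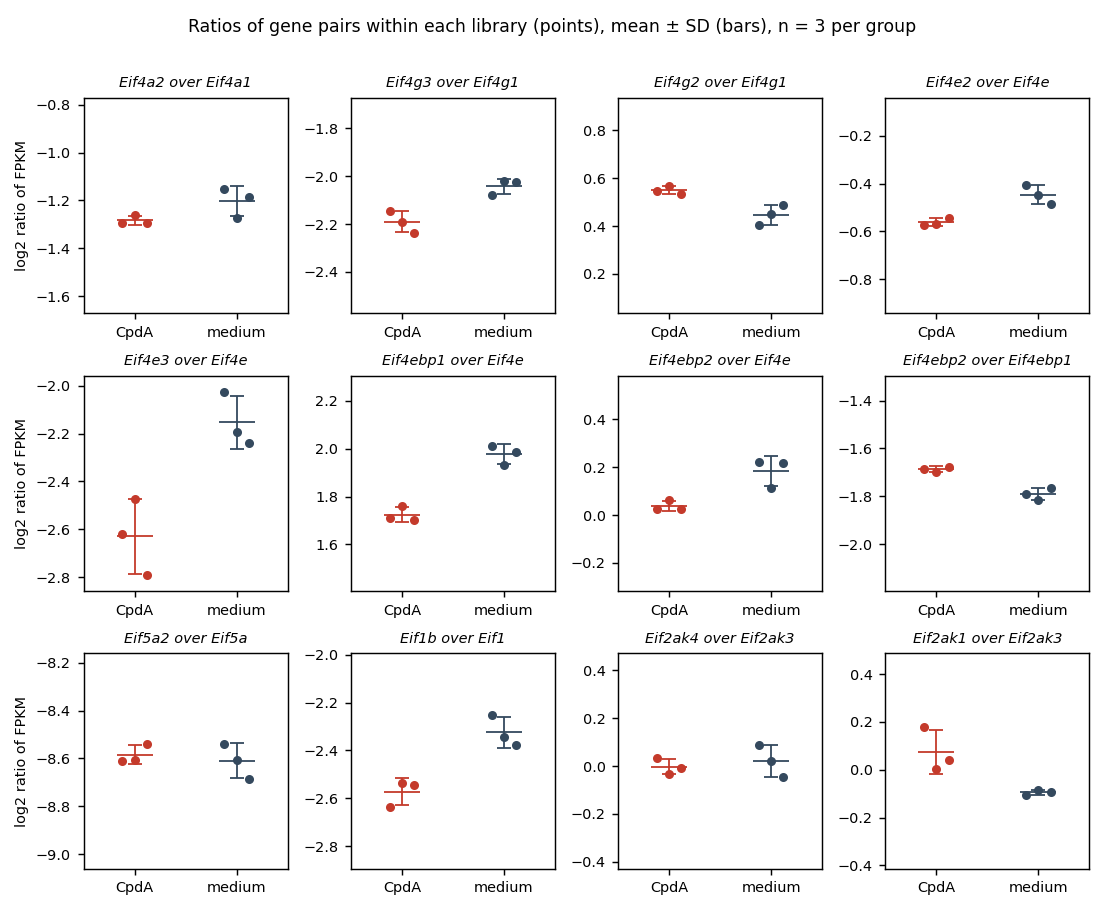
Log2 ratio of FPKM of 2 genes within each library (y axis, the same span of 0.9 in every panel), CpdA on the left and medium on the right; points are libraries and bars are the mean ± SD of 3. The groups do not overlap for 9 of the 12 ratios, with no share taken over other gene pairs. The widest gap is for Eif4e3 over Eif4e, at a log2 difference of -0.48.

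The eIF2 complex rose in 2 of its 3 tested genes and fell in 0, with a median log2 fold change of 0.12 and a summed level 10.9% higher. The share called was 66.7%, against 33.2% of all genes tested and 54.8% of the abundant genes. Eif2s1 codes for the alpha subunit, the one that the stress kinases phosphorylate. Its level was 225, 221 and 222 CPM in CpdA libraries, close to each other, against a wider 172, 196 and 182 CPM in medium libraries. The change was 0.27 ± 0.04 (SE, adjusted p = 1.32e-07). Eif2s2, the beta subunit, had 416, 439 and 433 CPM with CpdA and 395, 387 and 392 CPM in medium and rose by 0.12 (adjusted p = 0.000698). Eif2s3x, the X-linked gamma subunit that binds the initiator tRNA, did not overlap between groups but missed the threshold (log2 fold change 0.06, adjusted p = 0.127).

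In eIF2B, the exchange factor that recharges eIF2 with GTP, 3 of 5 genes rose, 0 fell, and all 5 estimates were above 0. The share called was 60%, against 33.2% of all genes tested. Eif2b4, the delta subunit, was at 54.8, 51.7 and 55.2 CPM with CpdA and 43.9, 46.7 and 41.8 CPM in medium, and Eif2b3, the gamma subunit, at 37.5, 33.4 and 36.3 CPM with CpdA and 29.2, 29.1 and 29.2 CPM in medium. Neither gene overlapped between groups, and they rose by 0.28 (adjusted p = 3.03e-05) and 0.28 (adjusted p = 0.00021). Eif2b1, the alpha subunit, had 52.9, 49.7 and 52.8 CPM with CpdA and 44.0, 49.7 and 46.8 CPM in medium, and replicate 2 of each group stood at 49.7 CPM. Its rise of 0.13 (adjusted p = 0.041) was lost without CpdA replicate 1 (adjusted p = 0.115), CpdA replicate 3 (0.128), medium replicate 1 (0.232) or medium replicate 3 (0.0945). Eif2b2 and Eif2b5 were at 0.11 and 0.06 and missed the threshold (adjusted p = 0.0656 and 0.303); both passed without CpdA replicate 2 (0.048 and 0.0401), so that 5 genes rose there, and Eif2b2 also without medium replicate 2 (0.0219).

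Of the 4 kinases that act on eIF2, the 3 counted here held 2 genes that fell and 0 that rose, while the kinase gene left out by the selection rule, Eif2ak2, rose. Of the 3 counted, 66.7% were called, against 33.2% of all genes tested. Eif2ak2, which codes for PKR, the sensor of double-stranded RNA, had 75.3, 75.3 and 71.2 CPM with CpdA and 57.6, 60.1 and 60.6 CPM in medium, without overlap and with a change of 0.30 (adjusted p = 7.43e-07). The 4 kinase genes therefore had no common direction. The summed level of the 3 counted genes was 123, 119.8 and 120.5 CPM with CpdA, against 132.5, 132.2 and 132.8 CPM in medium. Eif2ak4 codes for GCN2, the sensor of amino acid shortage. It had 45.0, 44.3 and 44.6 CPM with CpdA and 52.6, 50.9 and 49.7 CPM in medium and fell, with a change of -0.20 (adjusted p = 0.00109). Eif2ak3, which codes for PERK, the sensor of unfolded protein in the endoplasmic reticulum, had 37.5, 38.5 and 38.2 CPM with CpdA and 42.2, 42.7 and 43.7 CPM in medium and also fell, with -0.18 (adjusted p = 0.00606). Eif2ak4 and Eif2ak3 lay lower in every CpdA library than in any medium library. Eif2ak1, the kinase regulated by heme, was at 40.7, 37.0 and 37.7 CPM with CpdA and 37.6, 38.6 and 39.4 CPM in medium, which overlapped (log2 fold change -0.02, 95% interval -0.13 to 0.10). The 3 counted kinase genes were expressed at low level for their length, at 8.42 to 8.88 FPKM with CpdA and 8.90 to 9.64 FPKM in medium.

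Of the alternative carriers of initiator tRNA, Eif2d was at 77.5, 75.9 and 80.5 CPM with CpdA and 68.1, 72.2 and 69.6 CPM in medium and rose by 0.15 (adjusted p = 0.00644), a call lost without CpdA replicate 3 (0.0533). Eif2a, which is not a subunit of eIF2 despite its name, had a change of -0.07 (adjusted p = 0.129).

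The eIF3 complex, the largest of the initiation factors, was higher by small amounts. Of its 14 genes 7 rose and 0 fell, the median log2 fold change was 0.08, and the summed level was 5.87% higher. The share called was 50%, against 33.2% of all genes tested and 54.8% of the abundant genes. The span of its estimates ran from -0.05 to 0.19. Without medium replicate 1, the count was 4 higher and 1 lower, the lower one being Eif3f (adjusted p = 0.0494). Eif3c, a core subunit, had 631, 598 and 621 CPM in CpdA libraries and 536, 568 and 526 CPM in medium libraries and rose by 0.17 ± 0.03 (SE, adjusted p = 1.08e-05). Eif3b, the core subunit that carries an RNA recognition motif, had 385, 359.7 and 381 CPM with CpdA and 335, 360.3 and 322 CPM in medium. Its lowest CpdA library lay just under the highest medium library, and the gene rose by 0.14 (adjusted p = 0.00156). Eif3j1, a loosely bound subunit that acts at the decoding site, had 106, 103 and 103 CPM with CpdA and 91.1, 89.0 and 91.7 CPM in medium, with no overlap and a rise of 0.19 (adjusted p = 0.000125). Its copy Eif3j2 averaged 3.00 ± 0.55 CPM with CpdA and 3.10 ± 0.080 CPM in medium (SD, n = 3 each), and reads may be shared between the copies.

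The other 4 called subunits rose by less. These were Eif3e (0.10, adjusted p = 0.00481), Eif3m (0.10, 0.0129), Eif3l (0.09, 0.0135) and Eif3a (0.08, 0.0197), the largest subunit. Of these, Eif3e alone was called with any 1 library left out. Without medium replicate 1 the adjusted p was 0.0595 for Eif3m, 0.0839 for Eif3l and 0.0942 for Eif3a, and without medium replicate 3 it was 0.0516 for Eif3m and 0.0585 for Eif3l. Eif3d, the subunit that can itself bind a cap, and Eif3f, Eif3g, Eif3h, Eif3i and Eif3k were not called. Of these, 2 passed without medium replicate 2, Eif3g (adjusted p = 0.00379) and Eif3i (0.0429). For Eif3h the estimate was -0.05 with a 95% interval of -0.11 to 0.01, which lies wholly below the estimate for Eif3c.

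Per length, eIF3 subunit genes spanned a wide range although the subunits sit in 1 complex. Eif3h stood highest, at 352 ± 4.5 FPKM with CpdA and 362 ± 6.6 FPKM in medium (SD, n = 3 each). Eif3k and Eif3e followed, at 230.1 ± 2.5 and 215 ± 2.0 FPKM in medium, and Eif3d was the lowest of the stably bound subunits, at 64.5 ± 1.4 FPKM with CpdA and 62.2 ± 2.8 FPKM in medium. In medium, Eif3i and Eif3b, at 114 ± 3.0 and 114 ± 6.6 FPKM, did not differ beyond their spread, and neither did Eif3l and Eif3g, at 138 ± 4.0 and 135 ± 9.5 FPKM. Over all 53 genes Eif5a was the highest, at 1066 ± 46 FPKM with CpdA and 1010.1 ± 21 FPKM in medium, followed in medium by Eif1 (364 ± 2.4 FPKM), Eif3h and Eif4a1 (326 ± 9.6 FPKM). Eif4e, at 50.8 ± 0.94 FPKM with CpdA and 45.9 ± 0.83 FPKM in medium, was the lowest of the 3 main eIF4F genes, below Eif4g1 at 117 ± 3.0 FPKM with CpdA and 102 ± 2.4 FPKM in medium. FPKM rests on 1 deposited length per gene, so levels of genes with several transcript forms are approximate.

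**Figure D4:**
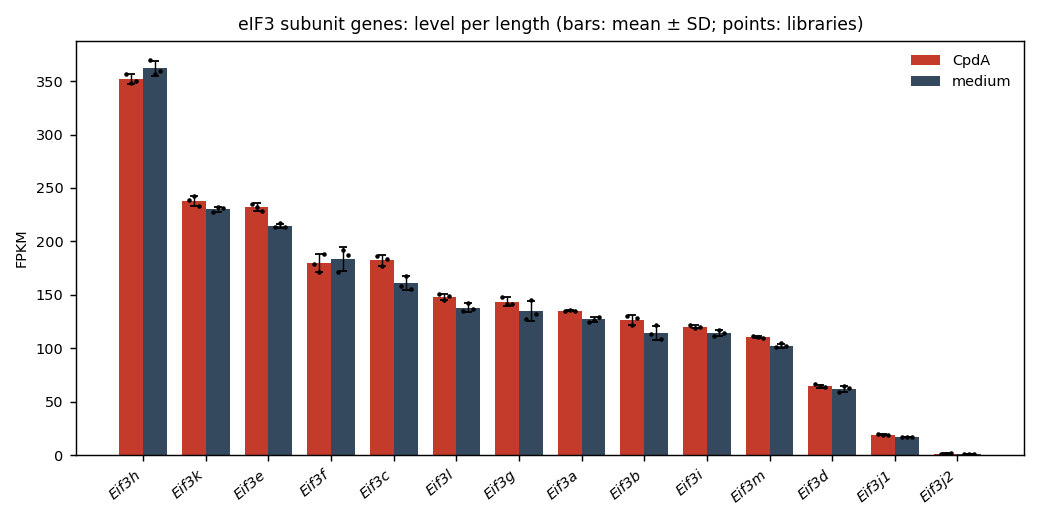
Level of the 14 eIF3 subunit genes in FPKM (y axis, from 0), sorted by the mean in medium, CpdA left of medium for each gene; bars are the mean ± SD of 3 libraries and points are libraries. Levels run from 362 FPKM for Eif3h to 1.30 FPKM for Eif3j2 in medium, and the differences between the groups are small beside the differences between genes.

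The eIF1 and eIF1A genes, which code for the factors that keep the scanning ribosome open until it meets a start codon, were called in all 5 cases, with 4 higher and 1 lower. The share called was 33.2% of all genes tested and 54.8% of the abundant genes. Eif1ad, related to eIF1A and known in human cells for a part in making the small ribosomal subunit, had the highest fold change of the 52. The gene (ENSMUSG00000024841) lies on the plus strand of chromosome 19, from 5366813 to 5371511 in GRCm38. It was at 69.7, 66.3 and 70.7 CPM with CpdA and 48.8, 55.5 and 50.8 CPM in medium, far apart, with a change of 0.40 ± 0.05 (SE; adjusted p = 1.29e-08). Eif1a had 153, 153 and 153 CPM with CpdA and 126, 131 and 132 CPM in medium, and its X-linked relative Eif1ax had 164, 161 and 163 CPM with CpdA and 137, 139.8 and 147 CPM in medium. Both were nearly constant among the CpdA libraries and rose without overlap, by 0.23 (adjusted p = 8.93e-07) and 0.19 (adjusted p = 1.89e-05), although reads of these near-identical genes may be shared. Eif1 itself rose by 0.12 (adjusted p = 0.000355), at 534, 522 and 527 CPM with CpdA and 478, 481 and 484 CPM in medium.

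Eif1b, which codes for a close copy of eIF1, was the exception in this group. It had 59.6, 62.5 and 62.7 CPM with CpdA and 69.5, 65.7 and 64.6 CPM in medium and fell, with a change of -0.12 (adjusted p = 0.0349). The call was lost without CpdA replicate 1 (adjusted p = 0.142), CpdA replicate 3 (0.0646) or medium replicate 1 (0.193), while the estimate stayed below 0 in each of the 14 settings.

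In the eIF5 family 3 of 4 genes rose (75% called, against 33.2% of all genes tested and 54.8% of the abundant genes). Eif5, the factor that makes eIF2 hydrolyse its GTP at the start codon, had 324, 315 and 337 CPM with CpdA and 272, 281 and 265 CPM in medium. The groups lay far apart, with a change of 0.25 ± 0.03 (SE; adjusted p = 2.59e-08). Eif5b, which joins the ribosomal subunits, had 215, 219 and 217 CPM with CpdA and 204, 206 and 195 CPM in medium and rose by 0.09 (adjusted p = 0.0187), a call lost without CpdA replicate 2 (0.0503) or medium replicate 3 (0.159). Eif5a, which acts mainly in elongation and carries the modified amino acid hypusine, was at 1581, 1458 and 1558 CPM with CpdA and 1423, 1484 and 1447 CPM in medium, which overlapped. It rose by 0.07, just under the threshold (adjusted p = 0.0487), and this was lost without CpdA replicate 1 (0.253), CpdA replicate 3 (0.167), medium replicate 1 (0.195) or medium replicate 3 (0.117). Its paralog Eif5a2 averaged 13.9 ± 0.81 CPM with CpdA and 12.9 ± 0.61 CPM in medium (SD, n = 3 each) and was not called (95% interval -0.08 to 0.27). Eif6, which keeps the large ribosomal subunit from joining too early and takes part in its making, had 203, 182 and 187 CPM with CpdA and 153, 174 and 158 CPM in medium. It rose without overlap, by 0.23 (adjusted p = 0.000127).

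Other genes of translation were read from lists for comparison, without a test of any list. The lists were chosen with earlier results of these data known, so their shares are descriptive only. Of 6 tested genes that help initiation but carry other names, 4 rose and 1 fell. The share called was 83.3%, against 33.2% of all genes and 54.8% of the abundant genes. The RNA helicase gene Ddx3x rose by 0.32 (adjusted p = 1.69e-11), at 368 ± 1.6 CPM with CpdA and 292 ± 9.6 CPM in medium (SD, n = 3 each). Bzw1, which codes for a mimic of eIF5, rose by 0.29, at 383 ± 7.3 CPM with CpdA and 312 ± 3.7 CPM in medium (adjusted p = 1.37e-10). Its relative Bzw2 rose by 0.12 (adjusted p = 0.039), a call kept in 8 of the 14 settings. Pdcd4, an inhibitor of the eIF4A helicase, had 65.7, 69.6 and 69.6 CPM with CpdA and 89.0, 90.4 and 84.4 CPM in medium and fell, with a change of -0.37 (adjusted p = 3.41e-09), so that it moved opposite to Eif4a1.

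Of 8 tested genes listed as elongation factors, 1 rose and 2 fell (37.5% called, against 33.2% of all genes), with a median log2 fold change of 0.01. Without medium replicate 2 the count was 2 higher, with Eef1d added (adjusted p = 0.0487), and Eef1a1 was called lower with limma-voom (adjusted p = 0.0114) and with the filter of 5 CPM (0.0334). Eef2, the translocation factor, fell by 0.09 on the log2 scale (adjusted p = 0.000729), and so did the gene of its inhibiting kinase, Eef2k (-0.31, adjusted p = 0.000169). Eef1e1, a scaffold of the tRNA synthetase complex rather than an elongation factor, rose by 0.28 (adjusted p = 5.21e-06). Of 9 termination and recycling genes 4 rose and 0 fell (44.4% called), among them the release factor gene Etf1 (0.29, adjusted p = 1.13e-09), Abce1 (0.21) and Denr (0.25). Of 9 genes for poly(A)-binding proteins and partners (55.6% called) 4 rose, namely Larp4 (0.14), Pabpc4 (0.13), Larp4b (0.10) and Paip1 (0.13). Without medium replicate 3 the count was 2, since Larp4b (adjusted p = 0.0735) and Paip1 (0.184) were lost. Larp4b was also lost without CpdA replicate 3 (0.0733), and Paip1 without CpdA replicate 1 (0.0864), CpdA replicate 2 (0.107) or medium replicate 1 (0.0757), in 6 of the 14 settings in all. The 1 that fell was Paip2, an inhibitor of poly(A)-binding protein (-0.09, adjusted p = 0.0421), a call lost in 10 of the 14 settings, among them without CpdA replicate 2 (0.0706), CpdA replicate 3 (0.193), medium replicate 1 (0.151) or medium replicate 3 (0.213).

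Of 13 genes of mTORC1 and the MNK kinases, which signal to eIF4F, 2 rose and 1 fell (23.1% called, against 33.2% of all genes), and the median log2 fold change was -0.07. Rps6kb1, which codes for an S6 kinase, rose by 0.18 (adjusted p = 0.00132) and Rheb, the activator of mTORC1, by 0.17 (adjusted p = 0.0049). Mknk2, a kinase of eIF4E, fell (-0.10, adjusted p = 0.00793), a call lost without CpdA replicate 3 (0.0578) or medium replicate 3 (0.0538). Without medium replicate 2 the lower count was 2, with Mtor added (adjusted p = 0.0219). Of 11 genes of eIF2 phosphorylation and the stress response 7 rose and 1, the adaptor gene Nck1 (-0.17), fell. The share called was 72.7%, against 33.2% of all genes and 54.8% of the abundant genes. Dnajc3, an inhibitor of the kinases PKR and PERK, rose by 0.23 (adjusted p = 3.89e-06), Atf4, the transcription factor translated when eIF2 is phosphorylated, by 0.17 (adjusted p = 1.81e-05), and Metap2, which also binds eIF2, by 0.18 (adjusted p = 7.45e-05). The call for Nck1 was lost without CpdA replicate 1 (adjusted p = 0.0978), CpdA replicate 2 (0.0712), medium replicate 2 (0.0551) or medium replicate 3 (0.139). Of the 7 genes that rose, Impact kept its call in 9 of the 14 settings, Ppp1r15b in 10 and Ddit3 in 13. For the hypusine enzymes, Dohh rose by 0.17 (adjusted p = 0.00903; 0.0535 without CpdA replicate 1 and 0.0615 without medium replicate 3) and Dhps was not called. The mitochondrial initiation factor genes Mtif2 and Mtif3 were not called, though Mtif2 passed without CpdA replicate 3 (0.044) or medium replicate 1 (0.0221).

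**Figure D5:**
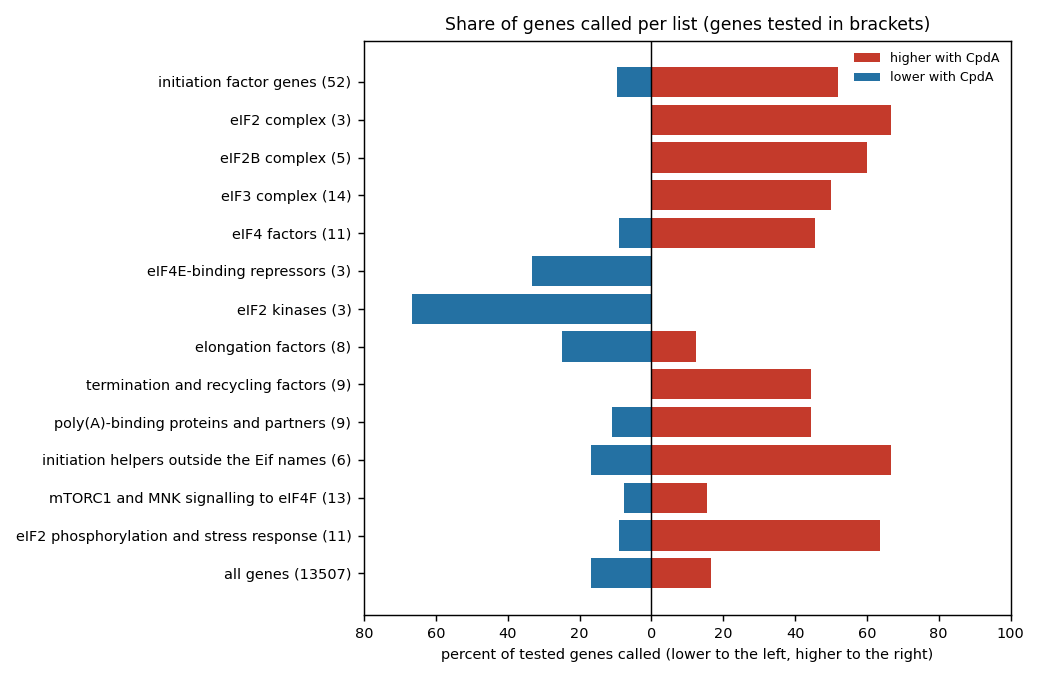
Share of tested genes called at adjusted p under 0.05 in each list (x axis, percent; higher with CpdA to the right of 0, lower to the left), with the number of genes tested in brackets. Of the 52 initiation factor genes 51.9% are higher and 9.62% lower, against 16.5% and 16.7% of all genes. Of the 3 eIF2 kinases counted 66.7% are lower and 0 higher, and of the 3 eIF4E-binding repressors 33.3%, a single gene, are lower and 0 higher.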

How the data were processed

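The deposited table holds read counts per gene for the 6 libraries and FPKM values, which the authors made from those counts; recomputing FPKM from the counts and gene lengths gave the deposited values within a relative difference of 1.86e-07. Per the labels, RNA was extracted with Trizol and libraries were made with the NEBNext Ultra kit. Per the submitters' processing notes, CASAVA 1.8 and the GRCm38 (mm10) build were used. The sources used here do not give the aligner, counter, annotation or strand setting, so genes that overlap or have near-identical copies are uncertain.

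The members, lists and motifs were chosen with earlier results of these data known. Counts were tested with edgeR 4.0.16 (R 4.3.3; TMM scaling, filterByExpr defaults, robust quasi-likelihood fit, Benjamini-Hochberg adjustment over 13507 genes), without covariates. Called genes had adjusted p under 0.05, and log2 fold changes are CpdA over medium. The alternatives, 14 in all, were other scalings, no filter, a filter of 5 CPM in 3 libraries, DESeq2 1.42.0, limma-voom (limma 3.58.1), a replicate block and leaving out each library. Values per library were given for all repressors, the 3 strongest calls of each group, calls against their group's direction and genes of the ratios; other genes were also shown where a result turned on them. Ratios used FPKM with an exact permutation test. Promoter windows came from RefSeq (GRCm38.p6). Within groups, library pairs had chi-square values of 2.18 to 4.18 per degree of freedom, so no library was a copy of another. At these depths a count of 0 allows up to 0.148 CPM, for counting error only. On simulated data with 13369 genes the test recovered 62.7% of 67 genes changed 1.25-fold, 77.3% of 66 changed 1.5-fold and 86.2% of 65 changed 2-fold. It called 15 of 13171 unchanged genes. Far fewer genes changed there than the 33.2% called in the data, and no fold under 1.25 was simulated. These rates therefore need not hold for the calls given here.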

Additional observations from a re-analysis of the deposited data

How the results depend on the processing

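No called initiation factor gene reversed its direction in any of the 14 alternatives, and limma-voom, DESeq2's size factors in edgeR and upper quartile scaling gave the same call for all 52 genes. The initiation factor genes called higher numbered 24 with DESeq2, 29 with library size alone, 25 with the filter of 5 CPM and 21 to 31 when 1 library was left out, against 27. Leaving out 1 library gave 3 to 5 lower initiation factor genes and 0 to 1 lower repressors, each lowest without CpdA replicate 3. It gave 4 to 9 higher and 0 to 1 lower eIF3 genes, with 4 higher and 1 lower without medium replicate 1. It also moved the log2 difference of Eif4a2 over Eif4a1 between -0.11 and -0.053, of Eif4ebp2 over Eif4e between -0.18 and -0.13, and of Eif2ak1 over Eif2ak3 between 0.12 and 0.20. Same-numbered libraries did not deviate together over all genes (correlations of -0.021, -0.015 and -0.0006). A correlation over all genes can miss a pairing, so whether the numbers pair the samples was not settled. With the replicate block 3936 genes were called in all (1927 higher, 2009 lower), and 22 initiation factor genes were higher and 4 lower. The block gave 5 higher eIF4 genes and 1 lower, 5 higher eIF3 genes, 2 higher eIF2 genes and 1 lower repressor. Depth limits Eif4ebp3 and Eif3j2. Eif2s3y was nearly without counts, and the reason was not tested.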
